A study of Homo sapiens with 12 samples.

Results

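The prostate cancer cell lines 22Rv1 and DU145 were compared with each other before either had been selected for resistance to docetaxel. The comparison used the 6 of 12 arrays that held parental, docetaxel-sensitive cells, 3 of each line. DU145 is an established line grown from a brain metastasis of a prostate carcinoma, and 22Rv1 is an established line derived from a prostate carcinoma xenograft. In both groups the cells were grown in RPMI with fetal bovine serum and no docetaxel, total RNA was taken with Trizol, and no gene had been altered by the study. The other 6 arrays held the docetaxel-selected lines DU145-DR and 22Rv1-DR, grown in the drug, and are used only where stated. Each line stands for 1 tumour, so a difference between them is a difference between these cell lines. The labels do not say whether replicates were separate cultures, so p-values measure the spread between these arrays, which may be technical.

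The luminal cells of the prostate secrete kallikreins such as prostate-specific antigen into semen, and they make them when androgen acts through its nuclear receptor. Prostate cancers that keep this program are called luminal, while cells that lose it can instead express basal, mesenchymal or inflammatory genes. 22Rv1 is commonly used as an androgen-responsive model and DU145 as an androgen-independent one.

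Replicates 1 and 2 of each line were on a smaller Affymetrix array type and replicate 3 of each line was on a larger one. On the smaller type the DU145 arrays had a higher floor than the 22Rv1 arrays, with 5th percentiles of deposited intensity of 38.6 and 35.8 against 12.3 and 11.7. On the larger type the floors were alike, at 11 for DU145 and 10.9 for 22Rv1. Array distribution and line therefore cannot be told apart on the smaller type, and values were quantile-normalized within each type, which gives all arrays of 1 type the same distribution. Levels below are log2 of normalized intensity, differences are 22Rv1 minus DU145 in log2 units, and levels of different genes or array types are not comparable. The test was limma's moderated test over the 2 arrays of each line on the smaller type. The third pair, replicate 3 of each line, has no test and its value is given beside the tested one. For each gene named with 6 values, the third value of a line is that of the larger type. A gene was read by 1 probe set. For some genes named by the rule, the mean of all probe sets gave a difference smaller by over 1.5 times. Where the difference of such a gene is printed, that value, its adjusted p or the number of probe sets of the same sign is given too. Of the 167 named genes that were called, the lower line lay below 5.20, the 25th percentile of the smaller type, in 32 of 80 higher in 22Rv1 and in 22 of 87 higher in DU145, and the size of those differences depends on the floor.

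Of 11939 genes, 2298 (19.2%) were higher in 22Rv1 and 2081 (17.4%) were higher in DU145 at a Benjamini-Hochberg adjusted p under 0.05. Together these were 36.7% of the genes tested, against which the counts below are to be read. With no normalization between arrays 388 genes were higher in 22Rv1 and 10000 in DU145, with a median difference of -1.54 over all genes, so each direction is relative to the quantile normalization. The groups did not overlap for 70.7% of all genes. A difference of at least 1 log2 unit was called for 1461 genes higher in 22Rv1 (12.2%) and 1405 higher in DU145 (11.8%). The count depended on single arrays: without replicate 1 of 22Rv1 it was 1657, without replicate 2 of 22Rv1 2013, and 1526 genes were called without each of the 4 arrays in turn. In each direction most calls were lost without 1 array or another, and the share lost was larger for genes higher in 22Rv1. The kept counts of the lists below are to be read against this and are not by themselves traits of a list. On the third pair 89.0% of the called genes had the same sign (95% exact binomial interval 88.0% to 89.9%, treating genes as independent), against 60.1% of the genes not called. That interval does not measure how the share would vary with another pair of arrays, since all genes were read on the same pair. Among called genes that differed by at least 2 log2 units the share was 97.7%, 932 of 954. Across all genes the third pair's difference correlated with that of replicates 1 and 2 at Pearson's r = 0.804 and Spearman's rho = 0.671. These correlations are descriptive, over 11939 genes that share the same arrays.

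**Figure D1:**
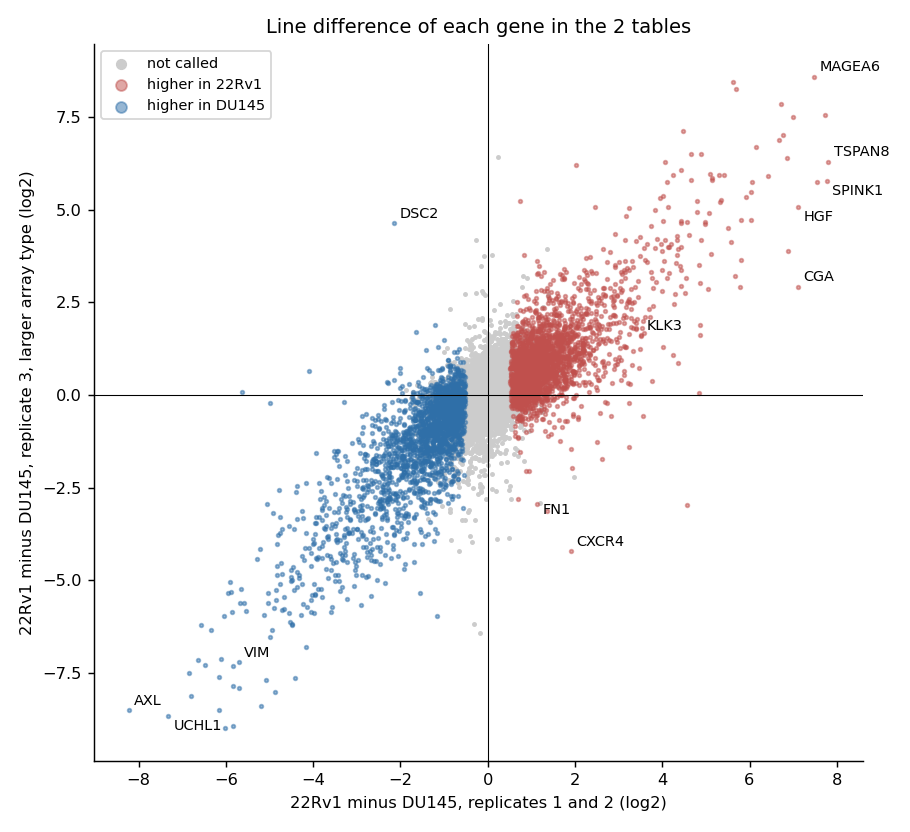
Each point is 1 of 11939 genes, with the line difference of replicates 1 and 2 (log2, horizontal axis) against that of replicate 3 on the larger array type (log2, vertical axis), coloured by the call made on replicates 1 and 2. Genes such as AXL and TSPAN8 lie far out on both axes, while CXCR4, DSC2 and FN1 lie on opposite sides of 0 in the 2 array types.

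Androgen-responsive genes were mostly higher in 22Rv1. Of 27 measured members of a list of such genes, 15 were higher in 22Rv1, 6 were higher in DU145 and 6 did not pass, with a median difference of 1.1 (0.86 on the third pair) against 0.01 over all genes tested. Without each array in turn, 7 of the 15 and 4 of the 6 remained called. RNA was measured in bulk, so fewer cells that express a gene and less RNA per cell cannot be told apart. KLK3, which encodes prostate-specific antigen, read 5.99, 5.07 and 4.52 in DU145 and 9.26, 8.81 and 6.12 in 22Rv1. All 22Rv1 arrays were above the DU145 arrays of their type, with a difference of 3.51 ± 0.36 (standard error, n = 2 arrays per line, limma adjusted p = 0.00219; 1.6 on the third pair). KLK2, a kallikrein next to KLK3 on chromosome 19, read 6.43, 5.65 and 4.46 in DU145 and 10.41, 10.34 and 8.24 in 22Rv1. Its difference was 4.34 ± 0.29 (limma adjusted p = 0.000667; 3.79 on the third pair; 2.48 with the mean of its probe sets), again with no overlap.

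The promoters of KLK3 and KLK2 are shown because these neighbours were both higher in 22Rv1. Those of TFPI2 and PLAUR, from a list of plasminogen activation and matrix protease genes, are shown because both genes were higher in DU145 and their windows hold 1 of the motifs searched. A promoter is here the 300 bases from RefSeq (GRCh38.p14) around a gene's start, most of them before it, written in the gene's direction. Capitals mark a match to AGAACA, the half-site that the androgen receptor binds, or to TGANTCA, the site of AP-1 factors, both searched on both strands.

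KLK3 (chr19:50854665-50854964, plus strand): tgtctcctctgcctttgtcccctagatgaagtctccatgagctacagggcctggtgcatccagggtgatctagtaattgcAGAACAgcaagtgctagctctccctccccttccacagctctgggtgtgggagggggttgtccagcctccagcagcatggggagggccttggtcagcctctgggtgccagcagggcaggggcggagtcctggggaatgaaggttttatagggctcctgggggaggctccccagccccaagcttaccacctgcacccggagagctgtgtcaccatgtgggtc

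KLK2 (chr19:50873189-50873488, plus strand): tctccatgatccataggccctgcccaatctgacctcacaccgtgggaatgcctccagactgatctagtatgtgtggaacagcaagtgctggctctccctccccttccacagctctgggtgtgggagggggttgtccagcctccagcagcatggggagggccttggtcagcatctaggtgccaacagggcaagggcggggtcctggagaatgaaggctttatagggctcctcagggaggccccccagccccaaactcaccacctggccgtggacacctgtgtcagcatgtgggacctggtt

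TFPI2 (chr7:93890704-93891003, minus strand): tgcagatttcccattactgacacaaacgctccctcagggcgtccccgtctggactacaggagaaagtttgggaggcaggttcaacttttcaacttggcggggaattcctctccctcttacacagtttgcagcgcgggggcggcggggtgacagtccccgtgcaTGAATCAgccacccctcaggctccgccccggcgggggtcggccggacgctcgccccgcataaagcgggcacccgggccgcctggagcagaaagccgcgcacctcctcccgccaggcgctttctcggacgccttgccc

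PLAUR (chr19:43670120-43670419, minus strand): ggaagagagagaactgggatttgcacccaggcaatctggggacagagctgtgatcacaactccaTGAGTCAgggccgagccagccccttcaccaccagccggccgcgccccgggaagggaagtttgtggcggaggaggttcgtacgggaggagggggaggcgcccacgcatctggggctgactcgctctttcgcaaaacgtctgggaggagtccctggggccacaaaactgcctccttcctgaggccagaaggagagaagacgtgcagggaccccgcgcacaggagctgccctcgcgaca

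The KLK3 window held AGAACA at position -170 from the start, and the KLK2 window did not hold these letters. AGAACA was in 14.8% of 35116 promoters and in 5 of 31 promoters found for 19 androgen-responsive genes (16.1%). It was in 4 of 15 promoters of 10 members that were higher in 22Rv1 (26.7%) and in 0 of 6 promoters of 4 members that were higher in DU145. Those higher in 22Rv1 included FKBP5 at 1 and separate promoters of PMEPA1 at 23 and -229, so a gene can count more than once. TGANTCA was in 7.71% of all promoters, in 5 of 18 promoters found for 16 genes of the plasminogen activation and matrix protease list (27.8%) and in 3 of 12 promoters of 10 members that were higher in DU145 (25%), and not in the 1 promoter of a member that was higher in 22Rv1. The matches of TFPI2 and PLAUR were at -87 and -186. A match is a description of the letters and was not tested against binding.

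Other androgen-responsive genes gave large values as well. HPGD, which inactivates prostaglandins, read 4.56, 4.80 and 3.86 in DU145 and 10.66, 10.75 and 9.35 in 22Rv1, a difference of 6.02 ± 0.17 (limma adjusted p = 0.000161). The DU145 values lay below 5.20. FKBP5, a co-chaperone of steroid receptors, read 5.60, 5.53 and 4.44 in DU145 and 7.30, 7.70 and 6.37 in 22Rv1, a difference of 1.94 ± 0.20 (limma adjusted p = 0.00215; 1.92 on the third pair). TMPRSS2, a serine protease of the luminal surface, was higher in 22Rv1 by 1.68 ± 0.22 (limma adjusted p = 0.00447; 0.73 on the third pair; 1.0 with the mean of its probe sets). The call of TMPRSS2 was lost without replicate 1 of 22Rv1 (limma adjusted p = 0.0572, within 1.08e-06 to 0.944 over its alternatives). AZGP1 and ACP3, both secreted by luminal cells, differed by 3.76 and 1.79 (3.15 and 3.32 on the third pair). Against the direction of the list, ABCC4, an efflux transporter, and ALDH1A3, a retinaldehyde dehydrogenase, were higher in DU145. ABCC4 differed by -3.88 ± 0.17 and ALDH1A3 by -5.91 ± 0.17 (limma adjusted p = 0.00027 and 0.000161; -4.37 and -5.05 on the third pair).

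Transcription factors of luminal and other epithelia were also more often higher in 22Rv1. Of 26 measured, 14 were higher in 22Rv1, 3 were higher in DU145 and 9 did not pass, with a median of 0.98 (0.41 on the third pair), and 12 of the 14 remained called without each array in turn. HOXB13, a homeobox factor of the prostate, read 5.24, 4.59 and 4.59 in DU145 and 9.56, 9.12 and 9.30 in 22Rv1, a difference of 4.43 ± 0.29 (limma adjusted p = 0.000652). TBX3 differed by 5.15 ± 0.38 and GRHL2, which maintains epithelial gene expression, by 4.98 ± 0.31 (limma adjusted p = 0.000919 and 0.000562; 5.80 and 4.62 on the third pair). SPDEF, an ETS factor of secretory epithelium, differed by 4.26, and ETV1, another ETS factor, by 4.14 (2.47 and 5.08 on the third pair). FOXA1, which opens chromatin for steroid receptors, was well expressed in both lines, at 8.54, 8.52 and 8.84 in DU145 and 10.20, 10.37 and 10.62 in 22Rv1. Its difference was 1.75 ± 0.16 (limma adjusted p = 0.00154; 1.79 on the third pair). GATA3 differed by 4.84 ± 0.30 on replicates 1 and 2 (limma adjusted p = 0.000582) but by 0.06 on the third pair, where DU145 read 5.78 and 22Rv1 5.83.

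**Figure D2:**
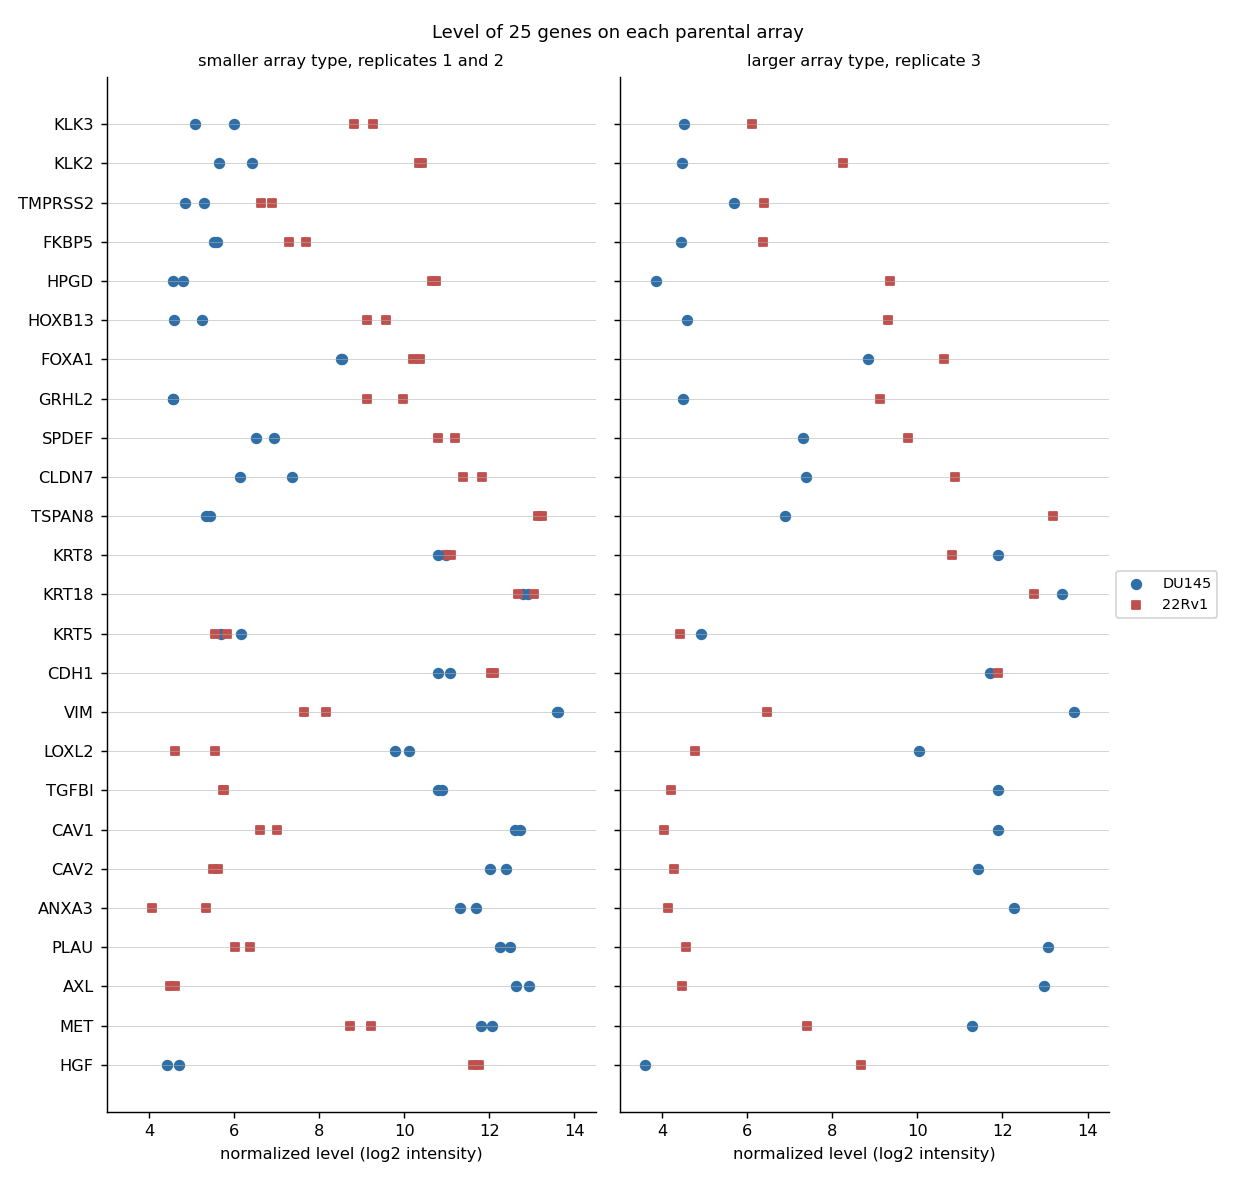
Normalized level (log2 intensity, horizontal axis) of 25 genes on each parental array, with DU145 as circles and 22Rv1 as squares, for replicates 1 and 2 (left) and replicate 3 (right). KLK3 to TSPAN8 and HGF sit higher in 22Rv1 and VIM to MET higher in DU145 in both panels, while KRT8, KRT18 and KRT5 overlap or lie close together.

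Both lines read as epithelial by their keratins. KRT18 and KRT8, the keratins of simple epithelium, stood at 12.68 to 13.05 and at 10.78 to 11.10 over the 4 arrays of the smaller type. Their differences of 0.02 ± 0.19 and 0.15 ± 0.16 did not pass (limma adjusted p = 0.96 and 0.516; -0.67 and -1.08 on the third pair), and both genes are read by probe sets prone to cross-hybridization. KRT5, a basal keratin, read 5.56 to 6.17 on the same arrays and did not pass (-0.22 ± 0.23, limma adjusted p = 0.504). CDH1, which encodes E-cadherin, was high in both lines and higher in 22Rv1 by 1.14 ± 0.17 (limma adjusted p = 0.00703; 0.20 on the third pair; 0.62 with the mean of its probe sets). That call was lost without replicate 1 or 2 of 22Rv1 (limma adjusted p = 0.0646 and 0.0672, within 3.66e-07 to 0.879 over its alternatives). CDH2, which encodes N-cadherin, did not pass (0.15 ± 0.19, limma adjusted p = 0.577). With the mean of its probe sets it was higher in 22Rv1 by 0.85 and passed (limma adjusted p = 0.0105).

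Luminal and simple epithelial markers split between the lines. Of 25 measured, KRT8, KRT18 and CDH1 among them, 10 were higher in 22Rv1 and 6 in DU145, with a median of 0.02. TSPAN8, a tetraspanin, had the largest tested difference of the genes named as higher in 22Rv1, at 5.34, 5.43 and 6.88 in DU145 and 13.24, 13.14 and 13.18 in 22Rv1 (7.80 ± 0.15, limma adjusted p = 0.000161; 6.3 on the third pair). AGR2, which folds mucins, differed by 4.86 ± 0.24 and AP1M2, a sorting adaptor of epithelia, by 4.35 ± 0.23 (limma adjusted p = 0.000317 and 0.000385; 3.02 and 4.19 on the third pair). ESRP1, an epithelial splicing factor, differed by 4.16 (3.98 on the third pair). KRT7 went the other way, at 12.15, 11.82 and 12.56 in DU145 and 7.18, 7.04 and 4.55 in 22Rv1 (-4.87 ± 0.18, limma adjusted p = 0.000207; -2.51 with the mean of its probe sets). Of 21 junction genes 11 were higher in 22Rv1 and 3 in DU145, with a median of 0.70 but 0.08 on the third pair. Without each array in turn, 4 of the 11 remained called. Tight junction proteins CLDN7 and CLDN4 differed by 4.85 ± 0.44 and 3.77 ± 0.18 (limma adjusted p = 0.00157 and 0.000317), with 3.50 and 0.37 on the third pair.

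Some genes of the basal layer and of adhesion to the basement membrane were higher in DU145, and most members of both lists did not pass or were higher in 22Rv1. Among 21 basal and squamous markers 9 were higher in DU145, 1 was higher in 22Rv1 and 11 did not pass, with a median of -0.69 (-0.35 on the third pair). Among 29 integrins, laminins and matrix receptors, some of which are on both lists, 13 were higher in DU145, 2 were higher in 22Rv1 and 14 did not pass, with a median of -0.56 (-0.81 on the third pair). Without each array in turn, 6 of the 9 and 6 of the 13 remained called. ITGA6, the laminin-binding integrin alpha chain of basal cells, read 10.45, 10.80 and 9.15 in DU145 and 5.36, 5.34 and 4.73 in 22Rv1, a difference of -5.28 ± 0.18 (limma adjusted p = 0.000199). LAMB3, a chain of the laminin that this integrin binds, read 10.99, 10.44 and 10.92 in DU145 and 5.72, 6.38 and 5.14 in 22Rv1, a difference of -4.66 ± 0.31 (limma adjusted p = 0.000687). The lines did not overlap for either gene. S100A2 and DST, the latter a linker of hemidesmosomes, differed by -3.68 ± 0.18 and -2.29 ± 0.15 (limma adjusted p = 0.000317 and 0.000667). With the mean of its probe sets, of which 5 of 8 had this sign, DST differed by -0.90. The defining basal keratins KRT5 and KRT14 were dim in both lines, below 5.99, the 40th percentile of the smaller type, in the mean of each line. SDC2, a syndecan, was higher in 22Rv1 by 4.44 ± 0.20 (limma adjusted p = 0.000277; 3.98 on the third pair).

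CD44, a hyaluronan receptor used as a marker of basal and stem-like cells, was high in both lines, at 10.95, 10.93 and 11.38 in DU145 and 9.89, 9.83 and 9.29 in 22Rv1. The difference was -1.08 ± 0.15 (limma adjusted p = 0.00518; -2.09 on the third pair). Its call was lost without replicate 1 or replicate 2 of 22Rv1 (differences of -1.11 and -1.05) and with arrays shifted to 1 median (limma adjusted p = 0.0698). With the mean of its probe sets the difference was -0.16 and the call was lost as well (limma adjusted p = 0.451). Over all alternatives the limma adjusted p ran from 1.77e-06 to 0.451.

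Mesenchymal genes did not move as a block. Of 37 measured, 13 were higher in DU145, 7 were higher in 22Rv1 and 17 did not pass, with a median of -0.21 (-0.34 on the third pair). Without each array in turn, 7 of the 13 and 3 of the 7 remained called. VIM, which encodes the intermediate filament vimentin, read 13.62, 13.59 and 13.68 in DU145 and 7.63, 8.16 and 6.47 in 22Rv1, a difference of -5.71 ± 0.22 (limma adjusted p = 0.000207). CCN1, TGFBI and LOXL2, all secreted into the matrix, differed by -5.88 ± 0.17, -5.08 ± 0.15 and -4.86 ± 0.35 (limma adjusted p = 0.000161, 0.000161 and 0.000854; -5.31, -7.69 and -5.27 on the third pair). LOXL2 differed by -1.88 with the mean of its probe sets. ZEB1, a repressor of E-cadherin, was also higher in DU145 (-2.79; -1.78 on the third pair), while TWIST1, another factor linked to mesenchymal change, was higher in 22Rv1 by 4.05 (6.29 on the third pair). SPOCK1, a matrix proteoglycan, was higher in 22Rv1 by 3.95 ± 0.19 (limma adjusted p = 0.000312). Of 14 fibroblast and smooth muscle markers 3 were higher in DU145 and 1 in 22Rv1, with MYLK, a myosin kinase, at -3.39 ± 0.20 and LUM, a matrix proteoglycan, at 2.02 ± 0.24 (limma adjusted p = 0.000503 and 0.00337; -3.90 and 6.22 on the third pair). Their summed normalized intensity was 1586 and 1246 in DU145 and 746 and 688 in 22Rv1 on the smaller type, and 1303 and 1386 on the larger. DCN, PDGFRA and COL3A1, which define fibroblasts, were dim in both lines, and the part of these markers in the mesenchymal values was not tested. Of 12 endothelial markers 0 passed limma's adjusted threshold and 1 had an unadjusted p under 0.05, and of 5 red cell markers 1 was higher in DU145.

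Proteases of the cell surface and matrix were among the groups with most members higher in DU145. Of 27 genes of plasminogen activation and matrix proteolysis, 15 were higher in DU145, 2 were higher in 22Rv1 and 10 did not pass, with a median of -1.32 (-1.73 on the third pair), and 12 of the 15 remained called without each array in turn. PLAU, the urokinase that activates plasminogen, read 12.26, 12.48 and 13.08 in DU145 and 6.02, 6.38 and 4.57 in 22Rv1, a difference of -6.17 ± 0.20 (limma adjusted p = 0.000164). PLAUR, its receptor, read 10.26, 10.08 and 9.85 in DU145 and 7.01, 7.35 and 6.24 in 22Rv1, a difference of -2.99 ± 0.19 (limma adjusted p = 0.000613). For both genes every DU145 array was above every 22Rv1 array of its type. TFPI2, an inhibitor of matrix serine proteases, was higher in DU145 as well (-5.66 ± 0.21, limma adjusted p = 0.000207; -5.23 on the third pair). So were the lysosomal cathepsins CTSL and CTSB, by -2.85 and -2.81 (-2.55 and -3.38 on the third pair). ADAMTS1, a secreted metalloprotease, was higher in 22Rv1 by 2.97 ± 0.15 (limma adjusted p = 0.000369). MMP2, MMP3, MMP7, MMP10 and MMP13 were dim in both lines and did not pass.

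Genes of caveolae and several annexins were higher in DU145 by large amounts. Of 23 S100 proteins, annexins and caveolins, 14 were higher in DU145, 1 was higher in 22Rv1 and 8 did not pass, with a median of -0.91 (-1.37 on the third pair), and 9 of the 14 remained called without each array in turn. With arrays shifted to 1 median in place of quantile normalization, 9 members were higher in DU145 and the median was -0.38. CAV1, the coat protein of caveolae, read 12.59, 12.73 and 11.90 in DU145 and 6.61, 7.0 and 4.04 in 22Rv1, a difference of -5.85 ± 0.20 (limma adjusted p = 0.000176). CAV2, its partner, read 12.02, 12.38 and 11.42 in DU145 and 5.62, 5.50 and 4.28 in 22Rv1, a difference of -6.64 ± 0.19 (limma adjusted p = 0.000161). CAVIN1, which is needed to form caveolae, differed by -4.76 (-5.11 on the third pair). ANXA2, a membrane-binding protein that also docks plasminogen activators, read 14.09, 14.02 and 14.24 in DU145 and 8.32, 8.15 and 5.32 in 22Rv1 (-5.83 ± 0.16, limma adjusted p = 0.000161). The probe set of ANXA2 is prone to cross-hybridization. ANXA3 and ANXA1 differed by -6.79 and -5.70. The member higher in 22Rv1 was S100P, by 5.70 (8.26 on the third pair).

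Growth factor receptors and their ligands differed gene by gene. AXL, a receptor kinase for GAS6, had the largest tested difference of the genes named as higher in DU145, at 12.92, 12.62 and 12.98 in DU145 and 4.48, 4.62 and 4.47 in 22Rv1, where replicates 1 and 2 lay below the 25th percentile. The difference was -8.22 ± 0.18 (limma adjusted p = 0.000161; -8.52 on the third pair; -5.19 with the mean of its probe sets), and its ligand GAS6 was also higher in DU145 (-1.93; -3.04 on the third pair). HGF and its receptor MET went opposite ways. HGF read 4.43, 4.71 and 3.60 in DU145 and 11.75, 11.62 and 8.68 in 22Rv1, a difference of 7.11 ± 0.18 (limma adjusted p = 0.000161). MET read 11.81, 12.07 and 11.28 in DU145 and 8.73, 9.22 and 7.40 in 22Rv1, a difference of -2.97 ± 0.23 (limma adjusted p = 0.000995; -3.88 on the third pair; -1.74 with the mean of its probe sets). FGFR3 was higher in 22Rv1 by 3.69 ± 0.36 (limma adjusted p = 0.00194; 2.0 with the mean of its probe sets). Over the 35 members of that list of receptor kinases and ligands, 13 were higher in DU145, 8 in 22Rv1 and 14 did not pass, with a median of -0.47. Without each array in turn, 11 of the 13 and 3 of the 8 remained called.

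In the ERBB family, EGFR and 2 of its ligands were higher in DU145 and the other receptors higher in 22Rv1. EGFR read 8.90, 8.98 and 8.16 in DU145 and 7.29, 7.22 and 6.28 in 22Rv1, a difference of -1.68 ± 0.15 (limma adjusted p = 0.00151). The ligands EREG and TGFA differed by -6.05 ± 0.18 and -3.11 ± 0.19 (limma adjusted p = 0.000161 and 0.00052; -5.97 and -1.3 on the third pair). ERBB4 differed by 2.19 ± 0.16 and ERBB3 by 1.85 ± 0.27 (limma adjusted p = 0.000832 and 0.00636; 1.42 and 1.83 on the third pair), and ERBB2 by 1.14 (0.20 on the third pair). With the mean of probe sets the values of TGFA, ERBB4 and ERBB3 were -1.62, 1.17 and 0.83, and 1 of the 2 probe sets of ERBB3 had its sign. The ERBB3 call was lost without replicate 1 of 22Rv1 (limma adjusted p = 0.0687, within 6.02e-11 to 0.101 over its alternatives). Of 12 ERBB receptors and ligands measured 4 were higher in DU145 and 3 in 22Rv1, and of 15 genes of insulin-like signalling 4 were higher in each. Among IGF-binding proteins, which hold insulin-like growth factors, IGFBP2 was higher in 22Rv1 (5.80 ± 0.18, limma adjusted p = 0.000161) and IGFBP6 and IGFBP4 were higher in DU145 (-3.50 ± 0.21 and -1.84 ± 0.18, limma adjusted p = 0.000526 and 0.00209).

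Genes that load and display peptides on class I molecules formed the list with the largest share of members higher in DU145. Of 18 measured, 14 were higher in DU145, 1 was higher in 22Rv1 and 3 did not pass, with a median of -2.08 (-1.86 on the third pair), and 11 of the 14 remained called without each array in turn. PSMB8 and PSMB9, catalytic subunits of the immunoproteasome, differed by -4.91 ± 0.20 and -3.93 ± 0.15 (limma adjusted p = 0.000244 and 0.000207; -5.76 and -4.40 on the third pair). PSMB8 read 10.61, 10.62 and 10.23 in DU145 and 5.49, 5.93 and 4.47 in 22Rv1, with no overlap. TAP2, a chain of the peptide transporter, differed by -3.24 ± 0.22 and ERAP2, which trims peptides, by -4.02 ± 0.18 (limma adjusted p = 0.000766 and 0.000277; -1.80 and -5.40 on the third pair). TAP2 differed by -1.16 with the mean of its probe sets. HLA-B and HLA-C differed by -3.06 and -3.16 (-3.10 and -2.94 on the third pair), on probe sets prone to cross-hybridization. B2M, the light chain of class I molecules, differed by -1.66 (-0.58 on the third pair). Of 13 class II genes 6 were higher in DU145 and 7 did not pass, and 3 of the 6 remained called without each array in turn. HLA-DMA, which loads class II molecules, differed by -3.04 ± 0.15 (limma adjusted p = 0.000317; -4.72 on the third pair).

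Among interferon-induced and NF-kappaB genes most called members were higher in DU145. Of 37 interferon-induced genes 23 were higher in DU145, 2 in 22Rv1 and 12 did not pass, with a median of -1.12 (-1.86 on the third pair), and 11 of the 23 remained called without each array in turn. PSMB9 is on this list too. UBE2L6, an enzyme that attaches ISG15, differed by -4.81 ± 0.22, IFI6 by -4.01 ± 0.19 and HERC5, a ligase for ISG15, by -3.22 ± 0.17 (limma adjusted p = 0.000281, 0.000317 and 0.000385). ISG15 itself was higher in 22Rv1, by 1.2 (0.68 on the third pair). IRF1, a factor that drives class I genes, differed by -2.67 (-2.40 on the third pair).

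Of 37 NF-kappaB targets, cytokines and chemokines 24 were higher in DU145, 2 in 22Rv1 and 11 did not pass, with a median of -1.56 (-1.64 on the third pair), and 19 of the 24 remained called without each array in turn. CXCL2, a neutrophil attractant, read 10.29, 10.35 and 9.39 in DU145 and 4.86, 4.45 and 3.77 in 22Rv1, a difference of -5.67 ± 0.20 (limma adjusted p = 0.000195). The probe set of CXCL2 is prone to cross-hybridization. ICAM1, an adhesion molecule for leukocytes, read 10.60, 10.46 and 9.5 in DU145 and 5.67, 6.41 and 4.51 in 22Rv1, a difference of -4.49 ± 0.28 (limma adjusted p = 0.000571). IL18 differed by -4.47 ± 0.20 (limma adjusted p = 0.000281), and IL6, CXCL8 and CXCL1 by -3.96, -3.85 and -4.17. The third pair gave -5.38, -2.80 and -2.39 for the last 3. CCL20 differed by -4.99 ± 0.22 (limma adjusted p = 0.000277), but on the third pair it read 3.88 in DU145 and 3.67 in 22Rv1, both below 4.11, the 25th percentile of that type. NFKB1, a subunit of the factor, did not pass (-0.23; -0.59 on the third pair). Few leukocyte markers were called. Of 18 measured 13 were dim in both lines, 4 were higher in DU145 and 1 in 22Rv1, and each of these 5 calls was lost without 1 array or another. Their summed normalized intensity was 1923 and 1787 in DU145 and 1200 and 1258 in 22Rv1 on the smaller type, and 1511 and 520 on the larger. ITGB2, one of them, differed by -5.96 on the third pair, and PTPRC, the common leukocyte antigen, was dim in both lines. The part of the leukocyte markers in these results was not tested.

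**Figure D3:**
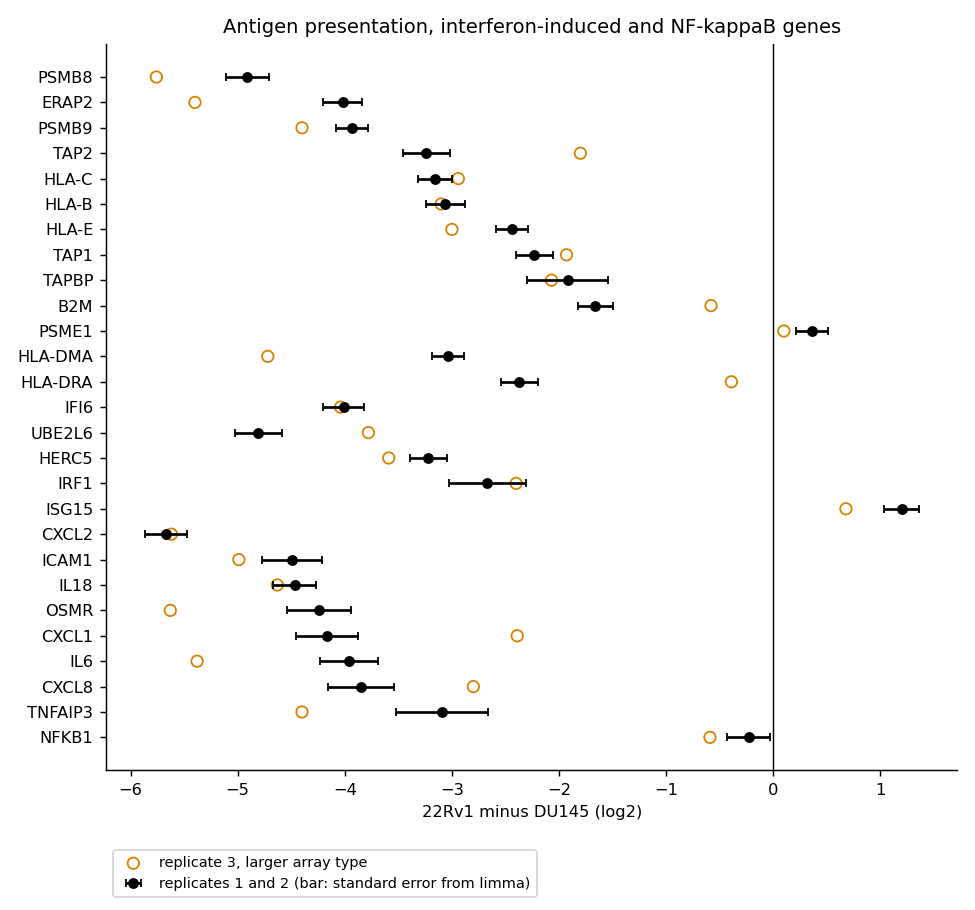
Line difference (22Rv1 minus DU145, log2, horizontal axis) of 27 antigen presentation, interferon-induced and NF-kappaB genes, with filled points for replicates 1 and 2 (bars are limma's standard error) and open points for replicate 3. All but ISG15, PSME1 and NFKB1 lie beyond -1.5 on replicates 1 and 2, and on the third pair B2M and HLA-DRA lie nearer 0.

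Neuroendocrine and neuronal genes, which some prostate cancers express, were more often higher in 22Rv1. Of 27 measured, 14 were higher in 22Rv1, 1 was higher in DU145 and 12 did not pass, with a median of 0.79 (0.53 on the third pair), and 10 of the 14 remained called without each array in turn. BEX1 read 5.91, 6.24 and 4.96 in DU145 and 12.34, 11.08 and 13.41 in 22Rv1, a difference of 5.63 ± 0.44 (limma adjusted p = 0.001). The secretory granule proteins CHGB and SCG3 differed by 4.44 ± 0.34 and 4.62 ± 0.37 (limma adjusted p = 0.000961 and 0.00107; 6.07 and 4.32 on the third pair). CHGA, the chromogranin used in pathology, differed by 1.14 (-0.08 on the third pair). SYP and INSM1, also used as neuroendocrine markers, did not pass. UCHL1, a deubiquitinase of neurons, was the exception, at 12.81, 12.76 and 13.21 in DU145 and 5.48, 5.44 and 4.54 in 22Rv1 (-7.33 ± 0.15, limma adjusted p = 0.000161).

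Some genes of gut and liver were among the largest values of 22Rv1. SPINK1, a trypsin inhibitor, read 5.01, 4.76 and 4.63 in DU145 and 12.65, 12.66 and 10.42 in 22Rv1 (7.77 ± 0.17, limma adjusted p = 0.000161). ALB, which encodes albumin, differed by 6.88 ± 0.19 and MUC13, a mucin of the gut surface, by 3.50 ± 0.21 (limma adjusted p = 0.000161 and 0.000494; 3.89 and 3.74 on the third pair). With the mean of its probe sets, of which 2 of 3 had this sign, ALB differed by 2.2. SERPINA1, an inhibitor of neutrophil elastase made by the liver, went the other way, by -3.79 ± 0.28 (limma adjusted p = 0.000919; -5.46 on the third pair), with 1 of its 3 probe sets of this sign. Over the list 11 of 32 measured genes were higher in 22Rv1, 3 in DU145 and 18 did not pass, 17 of the 32 being dim in both lines. HNF4G and UGT2B17 were dim in both lines and did not pass (-0.21 ± 0.19 and 0.09 ± 0.16, limma adjusted p = 0.44 and 0.688).

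Cancer-testis antigens, germline genes that tumours can express, differed in a few members by very large amounts. Of 23 measured, 6 were higher in 22Rv1, 2 were higher in DU145 and 15 did not pass, with a median of 0.08, and all 8 calls remained without each array in turn. MAGEA6 read 4.68, 4.72 and 3.78 in DU145 and 12.38, 11.97 and 12.38 in 22Rv1 (7.48 ± 0.20, limma adjusted p = 0.000161; 8.60 on the third pair). MAGEA12, SSX3, MAGEA1 and MAGEA4 differed by 6.99, 6.86, 6.76 and 6.67. MAGEA6, MAGEA12, MAGEA1 and SSX3 are near-identical to their paralogs and are read by probe sets prone to cross-hybridization, so which copy was measured is uncertain. DDX43 and BRDT were higher in DU145, with differences of -5.04 and -3.45 (-5.63 and -1.76 on the third pair).

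Developmental signalling genes were split by member. In the Wnt list (28 genes, 10 higher in 22Rv1 and 9 in DU145) LEF1, a nuclear effector, differed by 5.15 ± 0.19 and LGR5, a receptor for R-spondins, by 3.15 ± 0.15 (limma adjusted p = 0.000207 and 0.000312; 5.85 and 1.3 on the third pair). The antagonists DKK3 and SFRP1 were higher in DU145 (-4.52 ± 0.22 and -3.89 ± 0.15, limma adjusted p = 0.000317 and 0.000207; -4.72 and -5.24 on the third pair). With the mean of probe sets LEF1, LGR5 and DKK3 differed by 2.22, 1.69 and -1.25, and 3 of the 5 probe sets of DKK3 had its sign. In the TGF-beta and BMP list (33 genes, 11 higher in 22Rv1 and 9 in DU145) the receptor TGFBR2 was higher in DU145, at 10.93, 10.76 and 11.78 against 6.19, 6.38 and 5.88 (-4.56 ± 0.17, limma adjusted p = 0.000207). The ligand BMP2 and the targets ID4 and ID2 were higher in 22Rv1, by 4.53 ± 0.19, 6.72 ± 0.19 and 2.45 ± 0.15 (limma adjusted p = 0.000268, 0.000161 and 0.000514; 3.16, 7.87 and 5.07 on the third pair; 4.05 for ID4 with the mean of its probe sets). In the Notch list (17 genes, 4 higher in 22Rv1 and 3 in DU145) HES1, a target gene, differed by 3.11 ± 0.16 (limma adjusted p = 0.000401; 1.32 on the third pair; 2.03 with the mean of its probe sets). Of 22 HOX genes 3 were higher in 22Rv1, HOXB13 among them, 2 were higher in DU145 and 17 did not pass.

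Replication genes that were called were nearly all higher in 22Rv1, and for mitosis genes the split depended on the normalization. Of 34 S phase genes 14 were higher in 22Rv1 and 1 in DU145, with a median of 0.41 (1.1 on the third pair), but 3 of the 14 remained called without each array in turn. POLA1 and LIG1, a replicative polymerase and a DNA ligase, differed by 2.91 ± 0.17 and 2.03 ± 0.16 (limma adjusted p = 0.000494 and 0.00107; 2.13 and 1.95 on the third pair). POLE2 went the other way (-1.72 ± 0.17, limma adjusted p = 0.00189). Of 35 mitosis genes 9 were higher in 22Rv1 and 6 in DU145, with a median of 0.21. With arrays shifted to 1 median these were 14 and 2, and the median lay 0.47 above that of all genes. Under quantile normalization most calls of the mitosis list were lost without 1 array or another. MKI67, the proliferation marker Ki-67, read 11.08, 10.96 and 10.62 in DU145 and 8.05, 7.83 and 7.73 in 22Rv1 (-3.08 ± 0.17, limma adjusted p = 0.000417). With the mean of its probe sets, of which 2 of 4 had this sign, the call was lost (limma adjusted p = 0.379, within 1.70e-17 to 0.379 over its alternatives).

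Regulators of the G1 phase differed one by one. CDKN2A, which encodes the inhibitor p16, read 10.47, 10.54 and 10.28 in DU145 and 8.68, 8.61 and 8.38 in 22Rv1 (-1.86 ± 0.15, limma adjusted p = 0.00112). CCND1, which encodes cyclin D1, read 10.66, 10.57 and 10.11 in DU145 and 13.19, 13.30 and 12.83 in 22Rv1 (2.63 ± 0.15, limma adjusted p = 0.00049). RB1, which encodes the retinoblastoma protein that these act on, differed by 1.24 ± 0.24 (limma adjusted p = 0.0151; 1.49 on the third pair). CDKN1A, which encodes the inhibitor p21, differed by 1.31 ± 0.18, and MYC by 1.21 ± 0.16 (limma adjusted p = 0.00562 and 0.0052; 0.43 and 0.21 on the third pair). The RB1 call was lost without replicate 1 or 2 of 22Rv1 (limma adjusted p = 0.117 and 0.0959) and with the mean of its 2 probe sets (0.53, limma adjusted p = 0.167), that of CDKN1A without replicate 1 (0.0607) and that of MYC without replicate 2 (0.0545). Over their alternatives the adjusted p ran from 1.74e-06 to 0.876 for RB1, 7.78e-07 to 1.00 for CDKN1A and 1.08e-06 to 0.942 for MYC. Over the list of cell cycle arrest and G1 genes 12 of 32 were higher in 22Rv1 and 7 in DU145.

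Metabolic lists had small medians. Few calls of oxidative phosphorylation and of sterol and fatty acid synthesis held without each array in turn, while most of those of hypoxia and glycolysis did. Of 31 subunits of oxidative phosphorylation 16 were higher in 22Rv1 and 2 in DU145, with a median of 0.54 (0.80 on the third pair), and 3 of the 16 remained called without each array in turn. UQCRC1, COX5B and NDUFA9 differed by 1.66 ± 0.18, 1.41 ± 0.15 and 1.22 ± 0.16 (limma adjusted p = 0.00252, 0.00252 and 0.00488). Of 28 genes of sterol and fatty acid synthesis 13 were higher in 22Rv1 and 4 in DU145, with a median of 0.59 (0.31 on the third pair), and 2 of the 13 remained called. FASN, the fatty acid synthase, differed by 1.98 ± 0.27 (limma adjusted p = 0.00524; 0.98 on the third pair), and ME1, which makes NADPH, by -3.47 ± 0.15 (limma adjusted p = 0.000268; -3.92 on the third pair). With the mean of its probe sets, of which 1 of 2 had this sign, FASN differed by 0.86 and the call was lost (limma adjusted p = 0.0989, within 2.51e-11 to 0.0989 over its alternatives), and ME1 differed by -2.08. Of 22 housekeeping genes 5 were higher in 22Rv1 and 3 in DU145, with a median of 0.15 (0.13 on the third pair). With arrays shifted to 1 median in place of quantile normalization, the median of the housekeeping genes lay 0.83 above that of all genes, that of oxidative phosphorylation 1.1 and that of sterol and fatty acid synthesis 0.83, with 13 housekeeping genes higher in 22Rv1 and 1 in DU145. Of 31 hypoxia and glycolysis genes 13 were higher in DU145 and 4 in 22Rv1, with a median of -0.47 (-0.06 on the third pair), and with arrays shifted to 1 median 11 and 7. EPAS1, a hypoxia-inducible factor, read 10.78, 10.77 and 11.84 in DU145 and 6.52, 6.73 and 6.12 in 22Rv1 (-4.15 ± 0.16, limma adjusted p = 0.000207; -2.13 with the mean of its probe sets).

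The sensor of oxidative stress KEAP1, which marks the factor NRF2 for degradation, was low in DU145, at 5.38, 5.86 and 4.39 against 9.62, 9.67 and 9.10 in 22Rv1. The difference was 4.02 ± 0.21 (limma adjusted p = 0.000385; 4.71 on the third pair). Of 25 NRF2 targets and aldo-keto reductases, a list that also holds KEAP1, 11 were higher in DU145 and 5 in 22Rv1, with a median of -0.52 (-1.3 on the third pair), and 9 of the 11 remained called without each array in turn. ABCC3, an export pump, differed by -4.49 ± 0.35, HMOX1, heme oxygenase, by -2.77 ± 0.16 and NQO1, a quinone reductase, by -2.47 (-6.22, -1.63 and -4.22 on the third pair). The limma adjusted p of the first 2 was 0.000995 and 0.000464. AKR1C2 and AKR1C3, near-identical reductases of steroids, were higher in 22Rv1 on replicates 1 and 2 (3.24 and 3.55) and had the opposite sign on the third pair (-1.41 and -0.57). GSTP1, a glutathione transferase, read 9.67, 9.49 and 8.63 in DU145 and 5.08, 6.49 and 5.25 in 22Rv1 (-3.79 ± 0.47, limma adjusted p = 0.00397). The 22Rv1 arrays differed from each other by more than the DU145 arrays did, without overlap between the lines. Of 27 genes of that and other detoxifying families 7 were higher in DU145 and 4 in 22Rv1, and with arrays shifted to 1 median 4 and 5. CYP24A1 and CYP1B1 were higher in DU145 (-4.26 ± 0.35 and -3.59 ± 0.18, limma adjusted p = 0.00117 and 0.000323).

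Further lists hold genes that bear on taxanes, the efflux pumps and the tubulins that the drug binds. ABCB1, the pump P-glycoprotein, was dim in both parental lines, at 5.25, 5.31 and 4.13 in DU145 and 4.77, 4.53 and 3.92 in 22Rv1. Its difference of -0.63 ± 0.17 passed (limma adjusted p = 0.0377), but not without any 1 of the 4 arrays (limma adjusted p = 0.0769, 0.0857, 0.105 and 0.187 without DU145 replicates 1 and 2 and 22Rv1 replicates 1 and 2, within 1.44e-06 to 0.521 over all alternatives). Of 24 ABC transporters 8 were higher in DU145 and 3 in 22Rv1. Of 27 tubulins and microtubule regulators 8 were higher in 22Rv1 and 1 in DU145, with a median of 0.11, and 1 of the 8 remained called without each array in turn. That was TUBA1A, at 9.96, 10.03 and 10.45 in DU145 and 12.51, 12.60 and 12.35 in 22Rv1 (2.56 ± 0.15, limma adjusted p = 0.000494). TUBB6 was higher in DU145 (-2.10 ± 0.18, limma adjusted p = 0.00134; -1.36 on the third pair). TUBB3, the isotype often studied in taxane resistance, differed by 0.77 ± 0.16 (limma adjusted p = 0.017; 0.24 on the third pair) on a probe set prone to cross-hybridization. That call was lost without replicate 1 or 2 of 22Rv1 (limma adjusted p = 0.104 and 0.11, within 1.97e-05 to 0.229 over its alternatives), and with arrays shifted to 1 median the difference was 1.33.

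**Figure D4:**
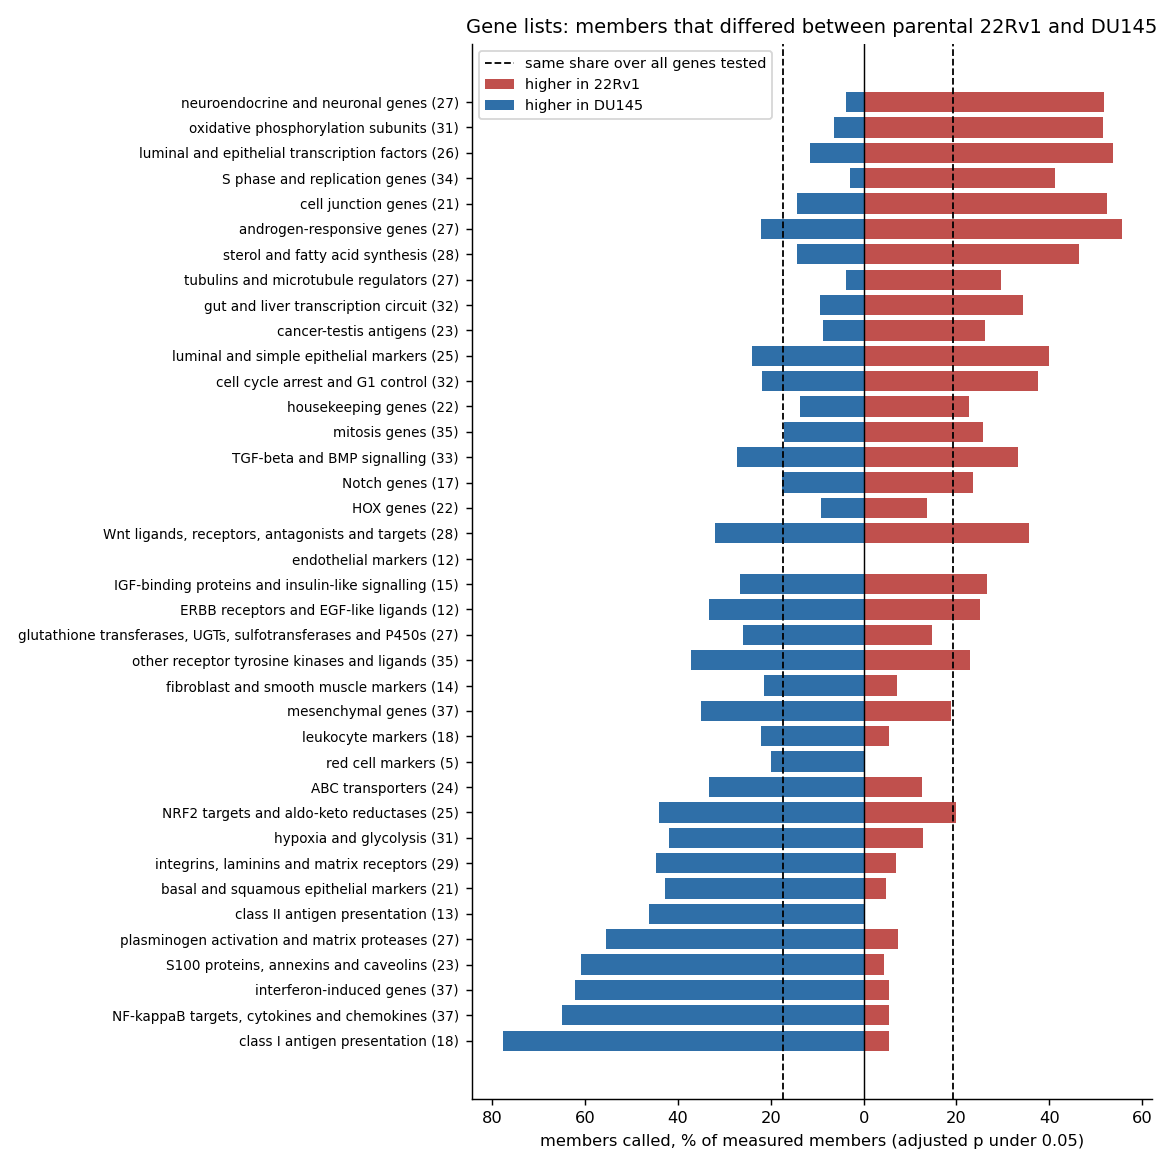
Share of the measured members of each of 38 gene lists that were called higher in 22Rv1 (right) or in DU145 (left), with the number measured in brackets and dashed lines at the shares over all genes tested (19.2% and 17.4%). Class I antigen presentation, NF-kappaB and interferon-induced genes reach furthest to the left, and androgen-responsive genes, luminal transcription factors and junction genes furthest to the right.

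Beyond the lists, the largest differences towards 22Rv1 included the methyltransferase-like gene TMT1A (7.74), TOX3 (7.54), CGA, the alpha chain of glycoprotein hormones (7.10), DHRS2 (6.43) and FXYD3 (6.14), each with limma adjusted p of 0.000161 to 0.000277. CGA read 5.04, 4.65 and 4.36 in DU145 and 12.14, 11.75 and 7.29 in 22Rv1, so the third pair was less far apart (2.92). Towards DU145 they included TM4SF1 (-6.84), NXN (-6.57), EFEMP1 (-6.48), CELF2 (-6.33), FHL2 (-6.16), LMO3 (-6.11), LGALS3 (-6.02) and SLC25A21 (-5.96), with limma adjusted p of 0.000161 to 0.000169. For LGALS3, which encodes galectin-3, DU145 read 11.41, 11.33 and 13.26 and 22Rv1 5.18, 5.52 and 4.26. The third pair gave 2.92 to 7.56 for the first 5 genes and -5.34 to -9.0 for the last 8. With the mean of its probe sets TMT1A differed by 3.56. TOX3 was read by a probe set prone to cross-hybridization.

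The larger array type carried 7801 further genes, each with 1 array per line and no test. A difference of more than 2 log2 units was found for 221 genes higher in 22Rv1 (2.83%) and 246 higher in DU145 (3.15%), against 2.97% and 5.18% of the genes on both types. TMEFF2, a prostate and brain membrane protein, read 3.60 in DU145 and 11.56 in 22Rv1. WDR72, ZNF595, SLITRK6 and PRAC1, the last a gene of prostate and colon, differed by 7.95, 7.53, 7.42 and 6.28. SFTA3 read 11.20 in DU145 and 3.51 in 22Rv1, and ZNF655, B3GNT5, CT83 and S100A16 differed by -6.33, -5.97, -5.74 and -5.68.

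Most line differences had the same sign in the resistant lines. Of the 4379 called genes 3939 (90.0%) had the same sign in 22Rv1-DR minus DU145-DR, and of the 954 with at least 2 log2 units 898 (94.1%) did. The share over genes not called was not computed. Deviations of parental and resistant arrays of 1 replicate number from their group means correlated at r = 0.649 in DU145 and 0.767 in 22Rv1. The DU145-DR arrays also had the higher floor, with 5th percentiles of 37.5 and 35.8 against 12 and 11.5 in 22Rv1-DR. The resistant arrays are therefore not independent of the parental ones. The median difference in the parental direction was 1.22 in the parental and 0.98 in the resistant lines. These genes were selected on the parental values, and on the third parental pair their median in that direction was 0.94. The medians therefore cannot show whether the difference between lines changed with resistance. The resistant difference minus the parental one was tested on the 8 arrays of the smaller type, with the arrays of 1 line and replicate number as a block. It passed for 2883 genes (24.1%), of which 1682 also passed for the parental difference, and 976 passed without the block. Leaving out 1 array, without the block, gave 309 to 1389 genes: 442 and 507 without DU145 replicates 1 and 2, 309 and 322 without 22Rv1 replicates 1 and 2, 346 and 331 without 22Rv1-DR replicates 1 and 2, and 944 and 1389 without DU145-DR replicates 1 and 2. The resistant cells were grown in docetaxel, so selection and exposure cannot be told apart.

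**Figure D5:**
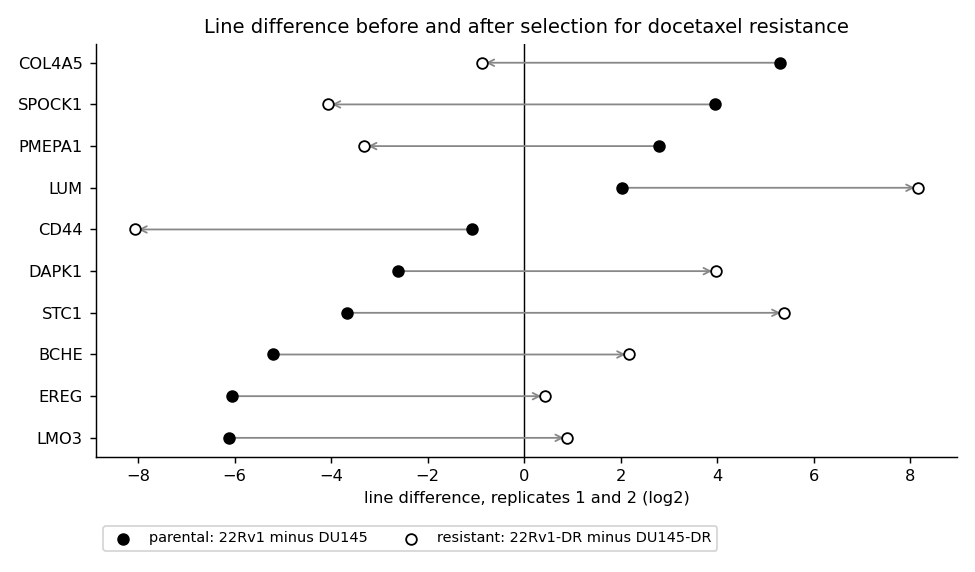
Line difference (log2, horizontal axis, replicates 1 and 2) of 10 genes in parental cells (filled) and resistant cells (open), joined by arrows. STC1, DAPK1 and BCHE go from higher in DU145 to higher in 22Rv1-DR, SPOCK1 and PMEPA1 go the other way, and CD44 and LUM move further from 0.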

How the data were processed

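The authors deposited probe-set intensity on a linear scale for 6 parental and 6 resistant samples, in a table of 22215 probe sets (replicates 1 and 2) and one of 54613 (replicate 3). The submitters' processing notes name MAS5 and RMA, with no role, order or version given in the sources used here. Deposited values ran from 7.52 to 31216 and from 6.73 to 30786, and the number of arrays limits the precision.

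Log2 intensities were quantile-normalized within each table. Probe sets with 1 gene symbol in the platform annotation were used (19033 and 41032), leaving out those with several (1043 and 1801), with none (2108 and 11721), and 31 and 59 of Y-linked or X-inactivation genes. A gene took its probe set with the highest mean among those not prone to cross-hybridization, or, for 459 genes, among those that are. With limma 3.58.1 (R 4.3.3), lmFit and eBayes were run on the 4 parental arrays of the smaller type (2 residual and 3.03 prior degrees of freedom, no filter on dim genes), two-sided, with Benjamini-Hochberg adjustment over 11939 genes. The interaction used all 8 arrays of that type (2 residual and 3.24 prior degrees of freedom). The fits were also run on simulated arrays that were independent and had few changed genes, unlike these data. The outcome is not reported here and does not bear on the calls.

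The members and 38 lists (1070 genes, 915 measured, 488 called) were chosen with earlier results of these data known. Named genes are the 15 largest differences each way that passed, did not overlap, agreed in sign with the third pair and were above the 40th percentile in the higher line; up to 4 such members of each list; 30 genes in any case, of which some are not analysed here; the 10 largest interactions; and, on the larger type only, the 8 largest each way. Other genes named were chosen after their values were seen, among them AZGP1, ACP3, SPDEF, ETV1, ESRP1, ZEB1, TWIST1, CTSL, CTSB, CAVIN1, ANXA1, S100P, GAS6, ERBB2, IRF1, IL6, CXCL8, CXCL1, CHGA, NQO1 and AKR1C2. Alternatives were other normalizations, offsets, filters, probe set rules, sample sets, a trend, a replicate block and leaving out each array.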

Additional observations from a re-analysis of the deposited data

Results flagged for a closer look

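In 10 genes the line difference of the resistant cells differed from that of the parental cells by a test of the difference itself, and these are the largest such values among genes that also passed for the parental difference. All 10 kept their direction under each alternative run for the interaction. They kept their call without the block, with no normalization between arrays and with an offset of 16. The mean of probe sets, arrays shifted to 1 median and both array types together were not run for the interaction. The parental call of CD44 was lost in the first 2 of these settings, and 2 of the 3 probe sets of STC1 had the sign of its parental difference. Each value is 22Rv1-DR minus DU145-DR, less 22Rv1 minus DU145, in log2 units over replicates 1 and 2. For STC1, a secreted glycoprotein, it was 9.06 ± 0.31, since DU145 read 9.56 and 9.19 and DU145-DR 5.01 and 5.43, while 22Rv1 read 5.92 and 5.50 and 22Rv1-DR 10.61 and 10.62. SPOCK1 gave -8.01 ± 0.65, from 5.29 and 4.96 in DU145 and 10.77 and 8.39 in DU145-DR against 8.99 and 9.16 in 22Rv1 and 5.51 and 5.54 in 22Rv1-DR. BCHE, butyrylcholinesterase, gave 7.38 ± 0.28, with DU145 at 11.84 and 12.05 and DU145-DR at 4.62 and 4.19, and 22Rv1 at 6.77 and 6.72 and 22Rv1-DR at 6.38 and 6.79.

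LMO3 and EREG, both highest in DU145, gave 7.01 ± 0.20 and 6.47 ± 0.15. EREG read 10.56 and 10.82 in DU145 and 3.97 and 4.20 in DU145-DR, and stayed at 4.51 to 4.76 on the 4 arrays of 22Rv1 and 22Rv1-DR. CD44 gave -6.99 ± 0.23, from 10.95 and 10.93 in DU145 and 13.30 and 12.68 in DU145-DR against 9.89 and 9.83 in 22Rv1 and 4.91 and 4.93 in 22Rv1-DR. DAPK1, a death-associated kinase, gave 6.59 ± 0.21, and LUM gave 6.15 ± 0.13, with 22Rv1 at 5.72 and 6.31 and 22Rv1-DR at 11.96 and 12.43. COL4A5, a chain of basement membrane collagen, gave -6.17 ± 0.19, with DU145 at 4.24 and 4.41 and DU145-DR at 10.80 and 11.32. PMEPA1, an androgen-responsive gene, gave -6.11 ± 0.49, with 22Rv1 at 10.57 and 9.43 and 22Rv1-DR at 5.11 and 5.16. The limma adjusted p of these interactions ran from 0.000245 to 0.00222. On replicate 3, with no test, the resistant difference of STC1, SPOCK1, DAPK1, PMEPA1, BCHE and COL4A5 was 3.49, -3.51, 3.83, -4.72, 1.06 and -1.54. In each case it had the opposite sign to the parental difference. LMO3 and EREG had resistant differences of 0.9 and 0.43 on replicates 1 and 2. On replicate 3 these were -0.56 and -0.18, with the parental sign (-7.12 and -5.97). CD44 went from -2.09 in parental to -9.52 in resistant cells on replicate 3. LUM changed less there, from 6.22 to 7.75, against 2.02 to 8.17 on replicates 1 and 2, and parental 22Rv1 already read 9.51.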

How the results depend on the processing

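With no normalization between arrays 10388 genes were called, 388 higher in 22Rv1 and 10000 higher in DU145, and 771 list members. The median difference of all genes was then -1.54, and every list's median was below 0. Relative to the median of all genes, list medians kept their sign except for cancer-testis antigens (-0.01), insulin-like signalling (0.07) and Notch genes (0.02). Under that setting these named genes changed sign: CDH2 (-1.66), CHMP2A (-0.24), KRT18 (-0.80), KRT8 (-1.04), LCP1 (-0.09), MAP2 (-0.21), MYC (-0.02), NDUFA9 (-0.01), POLR2A (-0.51), RB1 (-0.05), SNRPD3 (-0.37), TMPRSS2 (-0.02), TUBB3 (-0.32) and UGT2B17 (-1.52). POLR2A also changed sign with the mean of its probe sets (-0.01). Arrays shifted to 1 median gave 3095 genes higher in 22Rv1 and 1873 in DU145.

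Leaving out 1 array gave 1657 to 4426 genes, 758 to 2249 higher in 22Rv1 and 899 to 2177 higher in DU145, and 275 to 484 list members. The low ends were without replicate 1 of 22Rv1, and these fits have fewer samples. Of 167 named genes that were called, 27 lost their call there. For the interaction, leaving out 1 array gave 309 to 1389 genes and no replicate block 976. Deviations of same-numbered arrays correlated at 0.0866 between the parental lines, so the number does not pair them. A fit with the replicate block called 4308 genes, 2233 higher in 22Rv1 and 2075 in DU145. The other settings called 4017 to 5185 genes. The cause of these differences was not tested. Of the same 167 genes, 37 had a difference smaller by over 1.5 times with the mean of probe sets, where 7 calls were lost, and 38 with an offset of 64 added to intensity, where 1 was lost. Values near the floor limit the size of differences in both directions.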

Other observations

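A few genes had a clear difference on both array types but in opposite directions, and were chosen after their values were seen. Of 2866 called genes that differed by at least 1 log2 unit, 18 (0.628%) differed by at least 1 the other way on the third pair, 12 of them higher in 22Rv1 on replicates 1 and 2. LXN, a carboxypeptidase inhibitor, read 4.66 and 5.16 in DU145 and 9.42 and 9.52 in 22Rv1 on the smaller type, and 7.58 in DU145 and 4.63 in 22Rv1 on the larger. DSC2, a desmosomal cadherin, read 7.21 and 6.70 in DU145 and 4.80 and 4.82 in 22Rv1, and then 4.82 and 9.46. CXCR4, a chemokine receptor, read 5.06 and 5.56 in DU145 and 7.25 and 7.18 in 22Rv1, and then 9.74 and 5.52. GJA1, which encodes connexin 43, differed by 2.63 and then by -1.72, and CLU, which encodes clusterin, by 2.51 and then by -1.27. RNF128 differed by 1.94 and then by -1.98. The same probe set was read on both types, and the part of array type, culture and line in these values was not tested.

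Among genes only on the larger array type, the third pair and the resistant pair of that type were alike for some and apart for others. WDR72 differed by 7.95 between the parental and by 7.75 between the resistant lines, and LY6K by -5.70 and -5.72. DOCK8 differed by 6.49 and then by 0.19, and SFTA3 by -7.69 and then by -0.06. Each of these is 1 array per group, with no test.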
